A study of Mus musculus with 2 samples.

Results

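Nuclear hormone receptors were followed in heart apex tissue of mouse embryos at E12.5, in a mutant and a heterozygous control for Ezh2, the catalytic subunit of Polycomb repressive complex 2. The receptor genes were chosen by symbol alone, as all symbols in the pattern used for the numbered nuclear receptor subfamilies, except NR1I and NR2B, together with the estrogen, estrogen-related, peroxisome proliferator-activated (PPAR), thyroid hormone, ROR, vitamin D and progesterone receptors. This gave 38 genes of the 29383 in the table. The rule leaves out the retinoic acid, retinoid X and androgen receptors and the xenobiotic receptors Nr1i2 and Nr1i3.

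The mutant carried Nkx2-5cre and Ezh2f/f, that is 2 floxed copies, and the heterozygote Nkx2-5cre and Ezh2f/+, with 1 floxed copy. The Cre driver, expressed from the Nkx2-5 locus of the heart lineage, was thus present in both, and cells of other lineages need not have recombined. RNA of 8 heart apices was combined into 1 library for each genotype, so the spread between animals was not measured, no difference between genotypes has a replicate check, and no p-value was computed. Every interval below is a 95% interval of counting error for the ratio of mutant to heterozygote.

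The libraries held 14122579 reads in the mutant and 13944617 in the heterozygote. Ezh2 itself had 319 reads in the mutant and 493 in the heterozygote, a ratio of 0.601 (0.521 to 0.694), counted over the whole gene and not over the floxed exons. The labels call the material cardiomyocytes and name no sort, and markers of other heart cells were present. Summed levels were 47911 CPM in the mutant and 49653 CPM in the heterozygote for 10 ventricular cardiomyocyte markers, 12211 and 10765 CPM for 10 atrial markers, 1020 and 1053 CPM for 10 endothelial markers, and 817 and 836 CPM for 11 epicardial and mesenchymal markers. Pericyte and smooth muscle markers summed to 706 CPM in the mutant and 675 CPM in the heterozygote, although 6 of these 8 markers had a log2 ratio below 0 (median -0.19). Among them the pericyte marker Rgs5 had 7 reads in the mutant and 48 in the heterozygote, a ratio of 0.136 (0.0517 to 0.301), and abundant Tagln 2053 and 1298 reads, a ratio of 1.47 (1.37 to 1.58). The part of these cells in the receptor levels was not tested. Erythroid markers summed to 3463 CPM in the mutant and 4354 CPM in the heterozygote. Venous and lymphatic markers summed to 326 CPM in the mutant and 322 CPM in the heterozygote, and leukocyte markers to 38.7 and 48.6 CPM. Neural crest and neuronal markers summed to 10.2 CPM in the mutant and 10.4 CPM in the heterozygote, and 4 of 8 reached 1 CPM. Among the 8, the neural crest markers Sox10 and Foxd3 were at 0 in at least 1 library. In bulk tissue, fewer cells of a type and less RNA per cell cannot be told apart.

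Nuclear receptors are transcription factors that share a zinc finger DNA-binding domain and a ligand-binding domain. Many bind a hormone, vitamin or lipid and then exchange corepressors for coactivators on their target genes, while orphan receptors act without a known natural ligand. The core of most of their binding sites is the motif AGGTCA, bound as a repeat by dimers or alone by monomers. In the heart, thyroid hormone receptors set the balance of myosin isoforms, estrogen-related receptors and PPARs drive mitochondrial and fatty acid metabolism, and the COUP-TF Nr2f2 is known for its part in atrial identity and vein development.

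Promoter windows of 5 receptor genes are shown. Rora, Ppard, Nr2f1 and Nr1h4 were picked from these same data because their counts differed between the libraries. Their CG dinucleotides are marked because Polycomb repressive complex 2 is known to bind promoters rich in them. Binding of the complex was not measured, and a link between these windows and the counts was not tested. Nr1d2, at 17.7 CPM in the mutant and 17.3 CPM in the heterozygote, was chosen as a receptor whose window holds the core receptor motif. Each window runs from 250 bases before to 50 bases after a RefSeq start (build GRCm38.p6) and is written in the direction of the gene. Rora (chr9:68653536-68653835, plus strand), Ppard (chr17:28232504-28232803, plus strand) and Nr2f1 (chr13:78198824-78199123, minus strand) had more reads in the mutant, and Nr1h4 (chr10:89506609-89506908, minus strand) had fewer. In these 4, capitals mark CG dinucleotides. In Nr1d2 (chr14:18239057-18239356, minus strand), capitals mark the motif AGGTCA.
Rora: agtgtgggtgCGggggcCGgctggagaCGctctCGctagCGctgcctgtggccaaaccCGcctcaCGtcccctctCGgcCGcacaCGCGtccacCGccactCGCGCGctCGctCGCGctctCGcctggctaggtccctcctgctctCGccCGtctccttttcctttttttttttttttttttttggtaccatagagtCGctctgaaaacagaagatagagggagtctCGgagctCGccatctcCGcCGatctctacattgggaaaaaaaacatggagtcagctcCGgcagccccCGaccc
Ppard: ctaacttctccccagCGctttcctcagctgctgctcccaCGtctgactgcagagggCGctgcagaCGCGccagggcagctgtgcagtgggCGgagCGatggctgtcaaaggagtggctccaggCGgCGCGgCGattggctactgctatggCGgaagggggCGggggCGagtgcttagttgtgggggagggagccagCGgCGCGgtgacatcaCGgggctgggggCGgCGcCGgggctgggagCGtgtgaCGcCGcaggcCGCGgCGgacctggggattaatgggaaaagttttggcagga
Nr2f1: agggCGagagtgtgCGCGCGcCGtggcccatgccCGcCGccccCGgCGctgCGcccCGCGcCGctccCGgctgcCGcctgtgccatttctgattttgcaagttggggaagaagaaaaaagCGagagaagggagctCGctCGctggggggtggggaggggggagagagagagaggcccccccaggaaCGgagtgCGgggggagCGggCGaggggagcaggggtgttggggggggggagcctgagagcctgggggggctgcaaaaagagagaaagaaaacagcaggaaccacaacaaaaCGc
Nr1h4: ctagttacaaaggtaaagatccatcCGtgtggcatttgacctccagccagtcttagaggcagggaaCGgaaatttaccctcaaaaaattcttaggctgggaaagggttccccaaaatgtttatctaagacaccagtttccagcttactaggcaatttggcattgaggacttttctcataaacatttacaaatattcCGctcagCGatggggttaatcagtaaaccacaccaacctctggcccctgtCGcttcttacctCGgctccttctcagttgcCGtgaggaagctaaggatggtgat
Nr1d2: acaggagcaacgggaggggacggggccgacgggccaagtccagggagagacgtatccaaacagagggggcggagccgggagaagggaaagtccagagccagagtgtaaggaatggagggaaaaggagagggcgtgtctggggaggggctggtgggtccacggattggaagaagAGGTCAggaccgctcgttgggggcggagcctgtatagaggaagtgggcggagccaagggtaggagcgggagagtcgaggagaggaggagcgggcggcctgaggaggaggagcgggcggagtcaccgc

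The Rora window held 28 CG dinucleotides, the Ppard window 27 and the Nr2f1 window 23, and the Nr1h4 window 7. Other receptors do not follow this order. Esrrb, which also had more reads in the mutant, held 7 in each of its windows, while Nr2f6 and Nr4a2, whose counting intervals included a ratio of 1, held 53 and 52. A second Nr2f1 window, at a start farther downstream, held 4. Of the 38 receptor genes, 34 matched the promoter table. Counting the richest window of each gene, the median was 20 CG dinucleotides in the 22 matched receptors that reached 1 CPM, 14 in the 12 that did not, and 22 in all 8192 matched genes that reached 1 CPM. The motif AGGTCA, searched on both strands, stood in 8 of 47 receptor windows (17.0%) and in 16.3% of all 32851 windows. Of receptors at or above 1 CPM, Nr1d2, Nr1h4 and Nr6a1 had it in a window. The longer element TCAAGGTCA of the estrogen-related receptors, which contains AGGTCA, stood in 0 receptor windows and 0.423% of all windows. These matches describe letters in short windows and no binding.

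Levels were compared as CPM, counts scaled to 1000000 reads with TMM factors between the libraries. Of the 38 receptor genes, 25 reached 1 CPM in at least 1 library and 23 reached it in both. Vdr passed through the mutant library alone and Nr1h4 through the heterozygote alone. All 38 together took 8396 reads in the mutant (0.0595% of the library) and 7198 in the heterozygote (0.0516%). After TMM scaling these were 577 CPM and 532 CPM, a ratio of 1.08 (1.05 to 1.12). Esrrg, Thra and Esrra held 42.3% of these reads in the mutant and 39.5% in the heterozygote. The sum therefore follows a few abundant receptors.

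**Figure D1:**
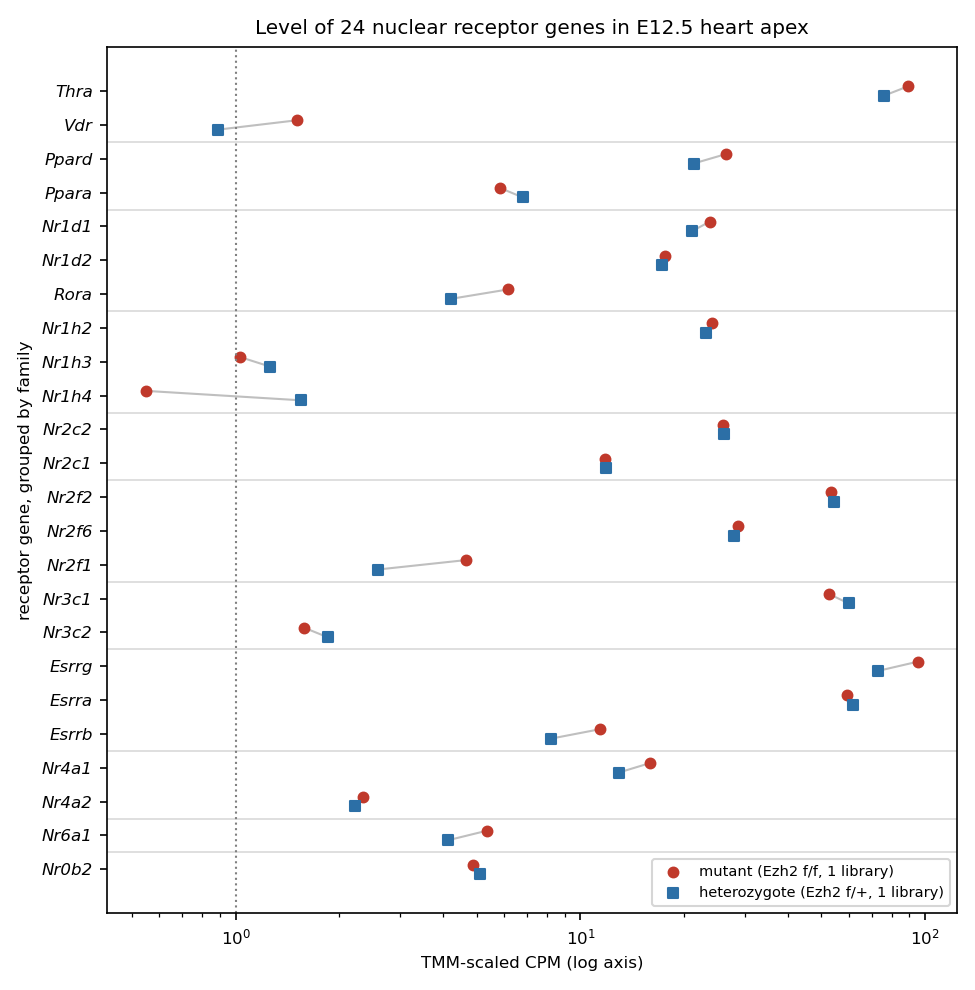
TMM-scaled CPM (log axis) of 24 of the 25 receptor genes that reached 1 CPM, grouped by family, with 1 point for the mutant library (red circle) and 1 for the heterozygote library (blue square); the dotted line marks 1 CPM. Levels run from 0.550 CPM (Nr1h4, mutant) to 95.5 CPM (Esrrg, mutant), and most pairs of points lie close together.

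No receptor gene was at least 2-fold apart on the log2 scale with 1 CPM added, where 0 of 25 were higher and 0 lower. Among all 16185 genes at 1 CPM or more, the share past 2-fold was 0.605% on the higher side and 0.173% on the lower side. The log2 ratios of the 25 receptors ran from -0.72 for Nr1h4 to 0.66 for Nr2f1. Their median was 0.05, against -0.01 for all genes tested, and 0.06 over all 38 receptors. Of the 25, 15 were above 0, as were 48.8% of all genes tested. Scaling to total counts put 20 of the 25 above 0, but it shifted all genes alike, with 61.9% above 0 and a median of 0.07.

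A finer rule asks whether the counting interval of a ratio leaves out 1, which depends on read depth and takes no account of differences between pools. By this rule 7 of 25 receptors (28%) were higher in the mutant, against a background of 17.4% of all genes tested, and 2 of 25 (8%) were lower, against 19.1%. The 7 were Esrrg, Thra, Ppard, Nr4a1, Esrrb, Rora and Nr2f1, and the 2 were Nr3c1 and Nr1h4. Nr1h4 reached 1 CPM in the heterozygote alone, which favors a lower call. Among genes at 1 CPM or more in both libraries, 7 of 23 receptors (30.4%) were above 1, against 17.2% of all genes. Below 1 was 1 of 23 (4.35%), against 19.6%. With at least 100 reads in both libraries together, 7 of 20 receptors were above 1 where 18.6% of all genes were, and 1 of 20 was below 1 where 21.8% were.

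Log2 ratios of all genes followed GC content, so each receptor was also read after a trend on GC content and transcript length was removed. In 10 equal bins of genes by GC content, the median log2 ratio was -0.18 in the lowest bin and 0.17 in the highest, and Spearman's rho was 0.44 across 10860 genes, which are not independent replicates. Across the 25 receptors rho was 0.21. With the trend removed, 4 of 25 receptors (16%) had an interval above 1, against 14.4% of all genes, and 2 (8%) had one below 1, against 15.8%. The 4 were Esrrg, Rora, Ppard and Nr2f1. The 2 were Nr1h4, which reached 1 CPM in the heterozygote alone, and Nr2f6, which was not called before. The share of higher receptors was then close to the background.

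**Figure D2:**
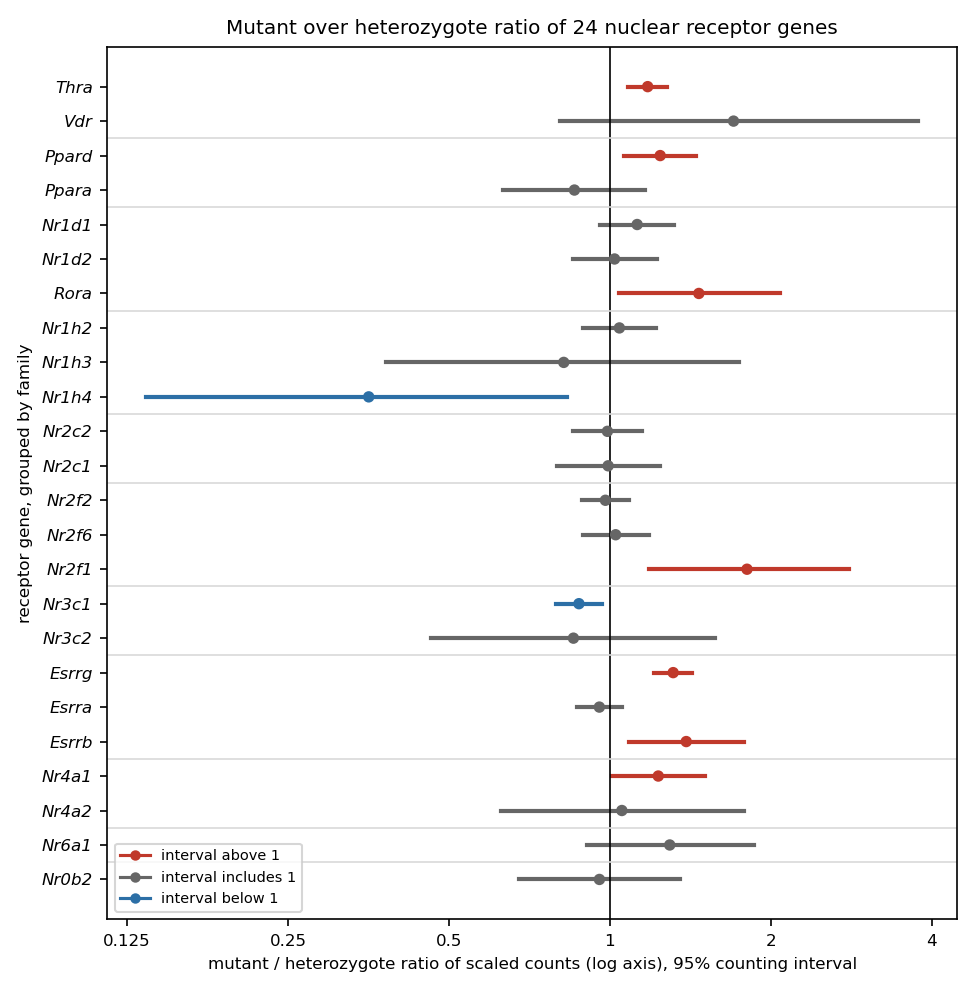
Ratio of mutant to heterozygote scaled counts (log axis) for 24 of the 25 receptor genes that reached 1 CPM, with 95% counting intervals, grouped by family. Intervals lie above 1 for 7 genes (red) and below 1 for 2 (blue), and the 15 others (grey) include 1.

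**Figure D3:**
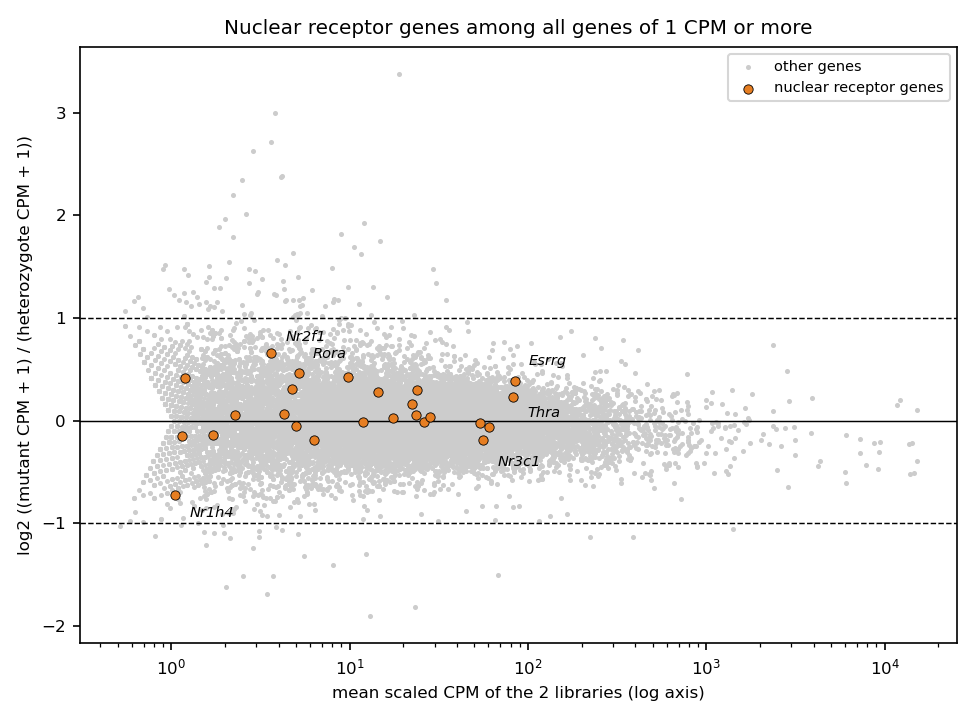
Log2 ratio of mutant to heterozygote with 1 CPM added, against the mean scaled CPM (log axis), for all 16185 genes at 1 CPM or more (grey) and the 25 receptor genes (orange); dashed lines mark 2-fold. All receptor points lie between the dashed lines, from -0.72 to 0.66.

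The estrogen-related receptors are orphan receptors that raise genes of oxidative metabolism together with the PGC-1 coactivators. Esrrg, the family member known for its part in the switch of the heart to oxidative metabolism around birth, had 1391 reads in the mutant and 984 in the heterozygote (95.5 and 72.7 CPM), a ratio of 1.31 (1.21 to 1.43). Its gene model lies on chromosome 1, from 189432908 to 190038763 in the files' coordinates, and a small antisense model inside it had 38 and 31 reads. Esrra, its widely expressed relative, had 861 reads in the mutant and 837 in the heterozygote, a ratio of 0.956 (0.868 to 1.05). The interval of Esrrg lay wholly above that of Esrra. Esrrb, known from pluripotent stem cells and the inner ear, had 166 reads in the mutant and 111 in the heterozygote, a ratio of 1.39 (1.09 to 1.78). With the GC trend removed, the ratio of Esrrg was 1.40 (1.29 to 1.52), while that of Esrrb was 1.27 and its interval (0.992 to 1.63) included 1.

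Per kilobase of the longest transcript, Esrra stood above Esrrg in both libraries, at 23.8 CPM per kb in the mutant and 24.9 in the heterozygote, against 17.8 and 13.5 for Esrrg. Esrrb was lower than both, at 2.65 CPM per kb in the mutant and 1.91 in the heterozygote. The estrogen receptors proper had few reads. Esr1 had 6 reads in the mutant and 5 in the heterozygote, and Esr2 had 3 and 1.

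Thra encodes the main thyroid hormone receptor of the heart and was the highest receptor per kilobase, at 36.3 CPM per kb in the mutant and 30.9 in the heterozygote. It had 1297 reads in the mutant and 1024 in the heterozygote, a ratio of 1.18 (1.08 to 1.28). Thrb, the second thyroid hormone receptor gene, had 4 reads in the mutant and 8 in the heterozygote, too few for a ratio that can be read (interval 0.102 to 1.73). With the GC trend removed, the ratio of Thra was 1.04 (0.957 to 1.13).

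The Thra model (chromosome 11, 98603187 to 98630320) ends 1072 bases inside the opposite-strand gene Nr1d1 (98629249 to 98636556). No source used here says whether strand was used in counting, so reads in this overlap cannot be assigned to either gene. Nr1d1 encodes REV-ERB alpha, a heme-binding repressor of the circadian clock. It had 345 reads in the mutant and 285 in the heterozygote, a ratio of 1.12 (0.959 to 1.32). Under scaling to total counts, which shifted all genes alike, the ratio of Nr1d1 was 1.195 (1.02 to 1.40). With the GC trend removed, the ratio of Nr1d1 was 1.03 (0.881 to 1.21). Its relative Nr1d2 had 257 and 234 reads, a ratio of 1.02 (0.852 to 1.22).

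The RORs bind the same elements as the REV-ERBs and activate where those repress. Rora had 90 reads in the mutant and 57 in the heterozygote, a ratio of 1.47 (1.04 to 2.08), and 1.53 (1.09 to 2.17) with the GC trend removed. A model inside Rora had 6 reads in the mutant and 10 in the heterozygote. Rorb had 7 reads in the mutant and 5 in the heterozygote.

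PPARs are fatty acid sensors that act with retinoid X receptors. Ppard, the broadly expressed form, had 385 reads in the mutant and 288 in the heterozygote (26.4 and 21.3 CPM), a ratio of 1.24 (1.06 to 1.45). Ppara, which drives fatty acid oxidation in the mature heart, had 85 reads in the mutant and 92 in the heterozygote, a ratio of 0.858 (0.632 to 1.17). Pparg, the regulator of fat cells, had 10 reads in the mutant and 6 in the heterozygote. Per kilobase, Ppard (7.10 CPM per kb in the mutant, 5.71 in the heterozygote) was above Ppara (1.71 and 1.99) in both libraries. The ratio of Ppard was 1.19 (1.02 to 1.39) with the GC trend removed.

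LXRs sense oxysterols and FXR senses bile acids. Nr1h2, the broadly expressed LXR beta, had 351 reads in the mutant and 313 in the heterozygote, a ratio of 1.04 (0.892 to 1.22). Nr1h3, LXR alpha, had 15 and 17 reads, a ratio of 0.820 (0.381 to 1.75). Nr1h4, which encodes FXR and lies on chromosome 10 (88917123 to 88996330), had 8 reads in the mutant and 21 in the heterozygote, a ratio of 0.354 (0.136 to 0.832). It was the lowest ratio among the 25 receptors and rests on 29 reads, with a level of 0.550 CPM in the mutant and 1.55 CPM in the heterozygote. Its log2 ratio was -0.72 with 1 CPM added and passed the 2-fold line only with 0.1 CPM added. Nr1h5, a second FXR gene of the mouse, had 1 read in the mutant and 0 in the heterozygote.

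COUP-TFs are orphan receptors that mostly repress. Nr2f1, known from neural and neural crest development and also expressed in atria, had 68 reads in the mutant and 35 in the heterozygote (4.67 and 2.59 CPM). Its ratio of 1.81 (1.18 to 2.80) was the highest of the receptors at or above 1 CPM, and it was 1.55 (1.02 to 2.40) with the GC trend removed. Its model lies on chromosome 13, from 78328236 to 78338243. Nr2f2, the abundant COUP-TF of this tissue, had 775 reads in the mutant and 734 in the heterozygote, a ratio of 0.981 (0.886 to 1.09). The interval of Nr2f1 lay above that of Nr2f2, but with the GC trend removed the intervals overlapped (Nr2f2 0.928 to 1.14). Nr2f6 had 416 reads in the mutant and 377 in the heterozygote, a ratio of 1.03 (0.890 to 1.18). Its transcript had the highest GC content of the 25 (67.3%), and its ratio was 0.803 (0.697 to 0.926) with the trend removed.

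Markers of cell types in which COUP-TFs are known stood beside Nr2f1 as follows. Of 9 atrial markers at 1 CPM or more, 3 had a positive log2 ratio (median -0.13). Their summed level was nevertheless higher in the mutant, at 12211 CPM against 10765 CPM in the heterozygote. Of 8 venous and lymphatic markers 4 were above 0 (median 0.01), of 11 epicardial and mesenchymal markers 5 (median -0.07), and of 4 neural crest and neuronal markers 2 (median -0.04). The part of these cells in the level of Nr2f1 was not tested.

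Receptors of the NR2C and NR2E groups had ratios near 1 or few reads. Nr2c1, testicular receptor 2, had 172 reads in the mutant and 161 in the heterozygote, a ratio of 0.993 (0.796 to 1.24). A same-strand model overlapping Nr2c1 by 3136 bases had 103 reads in the mutant and 80 in the heterozygote. That model may count some of the same reads. Nr2c2, testicular receptor 4, had 377 and 354 reads, a ratio of 0.990 (0.854 to 1.15). A model inside Nr2c2 on the same strand had 315 reads in the mutant and 321 in the heterozygote and may count some of the same reads. Nr2e1, a regulator of neural stem cells, had 3 reads in the mutant and 0 in the heterozygote, and the photoreceptor gene Nr2e3 had 0 and 1.

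Steroid receptors rest in the cytoplasm or nucleus with chaperones until a hormone binds. Nr3c1, the glucocorticoid receptor, had 764 reads in the mutant and 811 in the heterozygote (52.5 and 59.95 CPM), a ratio of 0.875 (0.792 to 0.967). Its interval included 1 with the GC trend removed, where the ratio was 0.927 (0.838 to 1.02), and under scaling to total counts, where it was 0.930 (0.842 to 1.03). Nr3c2, the mineralocorticoid receptor, had 23 and 25 reads, a ratio of 0.855 (0.464 to 1.57). The progesterone receptor gene Pgr had 1 read in the mutant and 0 in the heterozygote. Per kilobase, Nr3c1 stood at 8.15 CPM per kb in the mutant and 9.32 in the heterozygote, against 0.267 and 0.312 for Nr3c2.

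NR4A receptors are immediate early genes, induced quickly by stress and growth signals. Nr4a1 had 232 reads in the mutant and 175 in the heterozygote, a ratio of 1.23 (1.01 to 1.51), and 1.14 (0.929 to 1.39) with the GC trend removed. Nr4a2, known from dopamine neurons, had 34 and 30 reads, a ratio of 1.05 (0.625 to 1.78). Nr4a3 had 11 reads in the mutant and 8 in the heterozygote. Other immediate early genes, which can also respond to tissue handling, had a median log2 ratio of 0.12, with 15 of 19 above 0. With the GC trend removed the median was 0.08, with 11 of 19 above 0. Among them Jun had a ratio of 1.22 (1.13 to 1.31) and Jund 1.04 (0.985 to 1.10). The part of handling in the level of Nr4a1 was not tested.

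The remaining receptors came from small groups. Nr6a1, the germ cell nuclear factor of early embryos, had 78 reads in the mutant and 56 in the heterozygote, a ratio of 1.29 (0.906 to 1.86). Nr0b2, a corepressor-like receptor without a DNA-binding domain, had 71 and 69 reads, a ratio of 0.956 (0.677 to 1.35). Its relative Nr0b1 had 1 read in the mutant and 0 in the heterozygote. Of the NR5 receptors, Nr5a2, a regulator of liver and early embryonic genes, had 2 reads in the mutant and 6 in the heterozygote, and the adrenal and gonadal regulator Nr5a1 had 0 in both. Vdr, the vitamin D receptor, had 22 reads in the mutant and 12 in the heterozygote, a ratio of 1.70 (0.807 to 3.78).

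The 13 receptors below 1 CPM in both libraries had between 0 and 11 reads each, 49 in the mutant and 40 in the heterozygote in all. A count of 0 allows up to 3 reads, that is 0.206 CPM in the mutant and 0.222 CPM in the heterozygote. Differences among these genes were not detectable at this depth.

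Ranked per kilobase of the longest transcript over both libraries, the most abundant receptors were Thra, Esrra, Esrrg, Nr2f2, Nr2f6, Nr1h2 and Nr3c1. Nr2f2 (12.6 CPM per kb in the mutant, 12.9 in the heterozygote), Nr2f6 (12.9 and 12.6) and Nr1h2 (12.1 and 11.6) lay close together, with Nr2f2 and Nr2f6 changing places between the libraries and Nr1h2 below both in each. Transcript length came from GENCODE M21, and the models counted by the authors may be shorter or longer.

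**Figure D4:**
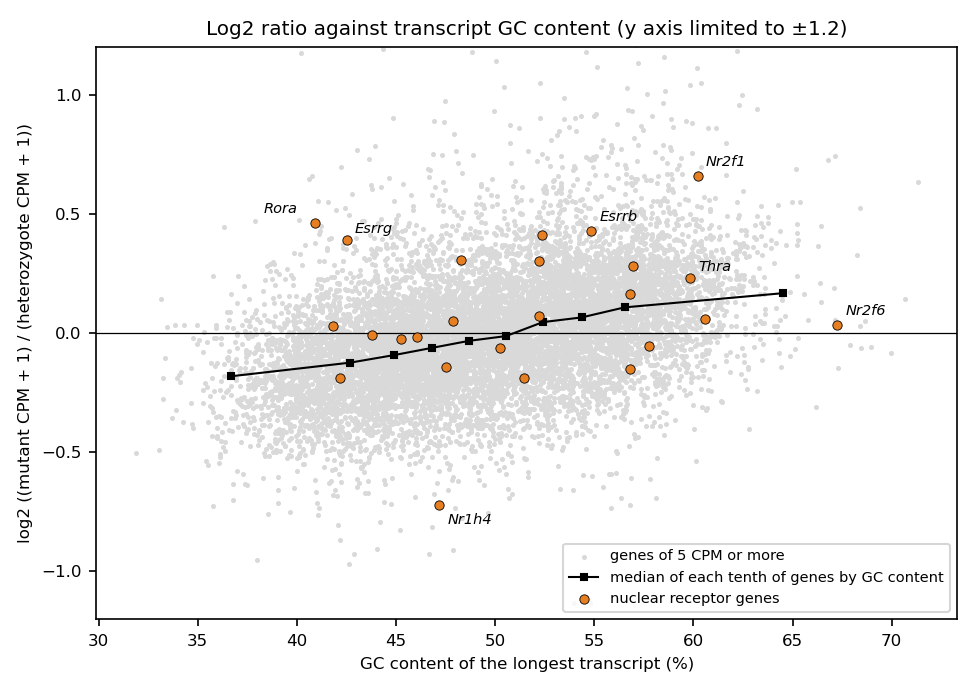
Log2 ratio of mutant to heterozygote with 1 CPM added, against the GC content of the longest transcript, for genes averaging 5 CPM or more (grey) and the 25 receptor genes (orange); black squares join the medians of 10 equal bins by GC content, from -0.18 to 0.17. Esrrg and Rora lie above the line at low GC content, and Nr2f6, with the highest GC content, lies below the last square; grey points past the limits of the y axis are not shown.

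Partners of these receptors outside the rule were read in the same way. Rxra, the common dimer partner of the PPARs, LXRs and thyroid hormone receptors, had 822 reads in the mutant and 650 in the heterozygote, a ratio of 1.18 (1.06 to 1.30). Rara, a retinoic acid receptor, had 902 and 608 reads, a ratio of 1.38 (1.24 to 1.53). Of the 7 retinoid and androgen receptors 5 reached 1 CPM, with a median log2 ratio of 0.23 and 0.03 with the GC trend removed. Nr1i3, the xenobiotic receptor CAR, had 112 reads in the mutant and 140 in the heterozygote, a ratio of 0.743 (0.575 to 0.960).

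Over all genes tested, 48.8% had a log2 ratio above 0. Cofactors had medians near that of all genes, and 0 of them were at least 2-fold apart. Of 17 coactivators 9 were above 0, with a median of 0.02. The arginine methyltransferase gene Prmt1 had a ratio of 0.845 (0.799 to 0.893) and the acetyltransferase gene Ep300 1.16 (1.08 to 1.25). The PGC-1 family, coactivators of the estrogen-related receptors among others, was named after its values were seen. Ppargc1a had 815 reads in the mutant and 953 in the heterozygote, a ratio of 0.795 (0.723 to 0.873). Ppargc1b had a ratio of 1.08 (0.945 to 1.24) and Pprc1 0.998 (0.890 to 1.12). Of 13 corepressors 6 were above 0, with a median of -0.01. Ncor1, the central nuclear receptor corepressor, had a ratio of 0.996 (0.948 to 1.05) and Cops2 0.765 (0.708 to 0.826).

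Chaperones of steroid receptors had a median log2 ratio of -0.06, with 3 of 14 above 0, and of -0.10 with the GC trend removed. Under scaling to total counts their median was 0.02, where the median of all genes tested was 0.07. Hsp90ab1 had a ratio of 1.01 (0.989 to 1.03) and Hspa8 0.807 (0.789 to 0.825). Of 24 genes that make, carry or break down receptor ligands, 10 reached 1 CPM. Their median was -0.19 with 2 above 0. Without added CPM, the low-count gene Cyp17a1 was past 2-fold, at 15 reads in the mutant and 30 in the heterozygote (ratio 0.465, 0.232 to 0.891). It was named after its values were seen. The thyroid hormone and amino acid transporter gene Slc16a10 had a ratio of 0.809 (0.654 to 0.9999).

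Target genes were listed by receptor from general knowledge, and none of the lists was tested. Estrogen-related receptor targets, mostly mitochondrial enzymes, had a median log2 ratio of -0.16 (-0.07 under scaling to total counts) with 5 of 20 above 0. Atp5b had a ratio of 1.02 (1.0001 to 1.04) and Atp5a1 0.890 (0.873 to 0.907). PPAR targets had a median of -0.0004 with 12 of 25 above 0. Fabp4, which encodes a carrier of fatty acids, was the only one at least 2-fold apart with 1 CPM added, at 143 reads in the mutant and 500 in the heterozygote (ratio 0.266, 0.219 to 0.321). Without added CPM, the low-count lipid droplet gene Plin4 was also past 2-fold, at 26 and 11 reads (ratio 2.20, 1.05 to 4.92). LXR targets had a median of 0.17 with 11 of 12 above 0, and Scd2, a fatty acid desaturase gene, had a ratio of 1.13 (1.10 to 1.15) and Apoe 1.02 (0.952 to 1.08).

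Thyroid hormone receptor targets had a median of 0.18 with 7 of 10 above 0. The list was not split into genes that the receptors raise and genes that they lower. Its median and count therefore give no direction of receptor activity. Cyp26b1, which encodes a retinoic acid hydroxylase, was the only one at least 2-fold apart with 1 CPM added, at 115 reads in the mutant and 32 in the heterozygote (ratio 3.34, 2.24 to 5.11). Without added CPM, the low-count potassium channel gene Kcnd2 was also past 2-fold, at 10 and 27 reads (ratio 0.344, 0.149 to 0.734). Plin4 and Kcnd2 were named after their values were seen. Glucocorticoid receptor targets had a median of 0.16 with 9 of 13 above 0. Among them the metallothionein gene Mt1 had a ratio of 1.25 (1.18 to 1.33) and the cell cycle inhibitor gene Cdkn1c 0.958 (0.934 to 0.982). Ddit4, an inhibitor of the mTOR pathway named after its values were seen, had 661 reads in the mutant and 320 in the heterozygote, a ratio of 1.92 (1.68 to 2.20).

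Circadian clock genes other than the receptors had a median of 0.27, with 14 of 16 above 0 and 0 at least 2-fold apart, and of 0.15 with the GC trend removed. The casein kinase genes Csnk1d and Csnk1e had ratios of 1.13 (1.06 to 1.21) and 1.22 (1.12 to 1.33).

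**Figure D5:**
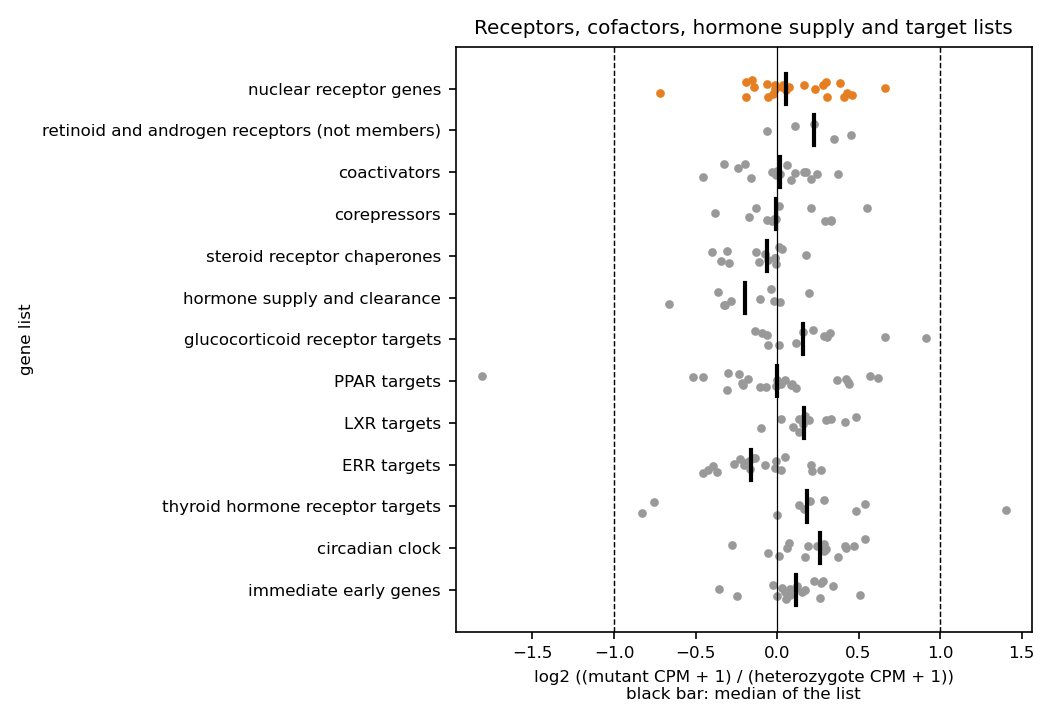
Log2 ratio of mutant to heterozygote with 1 CPM added for each gene at or above 1 CPM, in the receptor genes (orange) and in the lists of partners, cofactors, hormone supply and targets (grey, 1 point a gene, spread vertically at random); black bars are list medians and dashed lines mark 2-fold. Medians run from -0.19 (hormone supply) to 0.27 (circadian clock), and the 2 points past the dashed lines are Fabp4 and Cyp26b1.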

How the data were processed

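RNA sequencing of 1 pooled library per genotype was deposited as whole-number read counts per gene model (29595 models), per the file headers. Normalized columns deposited beside them are CPM over the library total, which recomputation matched to within 4.91e-11. The deposited fold is a ratio of heterozygote over mutant and the deposited p-value names no test, per the file headers; neither was used. Which aligner, counting program, strand setting and genome build were used is not given in the sources. Coordinates of gene models are those deposited, made 1-based.

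Rows of 1 symbol were summed (185 symbols had more than 1 row, 0 of them receptors). CPM were recomputed with TMM scaling (edgeR 4.0.16, R 4.3.3; factors 1.03 for the mutant and 0.970 for the heterozygote). Log2 ratios of mutant over heterozygote were taken after adding 1 CPM to both, which shrinks differences of low genes, and genes reaching 1 CPM in either library were compared. A ratio without added CPM carries a 95% exact conditional Poisson interval (scipy 1.17.1), tested on simulated data. Intervals hold counting error alone, as PCR copies cannot be told from separate molecules. The trend was a quadratic on GC content and log length of the longest GENCODE M21 transcript, fitted to 10860 genes. Of the genes on the pathway and marker lists, 258 matched by symbol and 14 by synonym, and 2 were not matched. Of the 38 receptors, 15 overlap another model that can count the same reads. The text names receptors and, per list, genes past 2-fold or, failing any, the 2 with the highest mean CPM; a few genes that enter the counts are not reported here. Promoter windows came from RefSeq (GRCm38.p6). Receptors, lists and alternatives were chosen with earlier results of these data known.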

Additional observations from a re-analysis of the deposited data

How the results depend on the processing

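Recomputed under 9 alternatives, 180 summary values on receptors and lists moved by less than the typical counting interval of their genes or, for counts, by at most 1.5 times, and 9 moved by more. Under total-count scaling, the receptors with an interval below 1 numbered 1, as Nr3c1 was lost, and the median of estrogen-related receptor targets was -0.0697. With 0.1 CPM added, 1 receptor (Nr1h4) was at least 2-fold lower, and 2 list genes were at least 2-fold higher and 3 lower, against 1 each with 1 CPM added. With 5 CPM added, 0 list genes were at least 2-fold higher. The counts of receptor intervals do not depend on the CPM added, so they could not move under these alternatives. Without a filter on low values 24 of 38 receptors were above 0. With a floor of 5 CPM, which leaves 18 receptors and drops Nr1h4, 1 receptor had an interval below 1. With the GC and length trend removed, 4 receptors had an interval above 1 in place of 7. The 9 receptors whose interval left out 1 kept the sign of their log2 ratio under every alternative that gave a value. They were picked from these same data, and a changed floor or added CPM cannot alter a sign. Only the scalings, the separate rows and the removed trend could have altered it. Thra and Nr2f6 with the trend removed, and Nr1h4 with 5 CPM added, left their counting interval. These shifts follow from the subtracted trend and from the added CPM, which shrinks differences of low genes. The cause of the GC trend was not tested. Over all genes, 98 were at least 2-fold higher and 28 lower, against 312 and 143 with 0.1 CPM added, 14 and 6 with 5 CPM added and 50 and 14 with a floor of 5 CPM. No paired analysis was possible because each genotype has 1 library, and for the same reason no library could be left out. Depth limits the 13 receptors below 1 CPM, and the spread between animals was not measured.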
